A study of Mus musculus with 8 samples.

Results

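A group of 9 genes used to recognise monocytes and their progeny were followed in a bone marrow fraction that had been sorted for neutrophils. They were Csf1r, Cx3cr1, Ccr2, Ly86, Ms4a6c, F13a1, Fn1, Vcan and Mpeg1. Every array probe whose RefSeq transcript belongs to one of the 9 genes was taken, which gave 9 of the 20660 named genes and 16 of the 55681 probes on the array. The fraction was Ly6G+ neutrophils from the marrow of tibias and femurs of mice on the C57BL/6 background, either WT or ATF3 KO, with 4 samples of each genotype and 1 single-colour Agilent array per sample. Atf3 encodes a stress-induced transcription factor. The labels give no age or sex, do not describe the ATF3 KO allele, and do not say that the samples came from separate animals, so p-values measure the spread between these samples only. The design text has RNA taken directly after the sort, whereas the description of 7 of the 8 samples (all but WT replicate 1) names a culture containing 4-OHT, so the labels conflict here.

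Monocytes arise in the marrow from progenitors they share with neutrophils, and they leave it for the blood under the control of chemokine receptors. Signalling through the receptor for colony stimulating factor 1 keeps monocytes and macrophages alive, and classical and patrolling monocytes are told apart by their levels of Ccr2 and Cx3cr1. A fraction sorted with beads for a neutrophil surface protein can still hold other cells. Transcripts of several of these genes are also found in neutrophils, dendritic cells, B cells, platelets or stroma.

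A signal below is the background-subtracted spot intensity divided by the 75th percentile of its array, and a difference is ATF3 KO minus WT on the log2 scale. The percentile ran from 113 to 216 intensity units, averaging 186 ± 33.8 over the WT arrays against 141 ± 21.3 over the ATF3 KO arrays (SD, 4 arrays each, two-sided exact permutation p = 0.0857). All 8 arrays lay on 1 slide, with the 4 WT arrays in a row of their own and the 4 ATF3 KO arrays in another, so genotype cannot be told apart from the row on the slide. ATF3 KO replicate 4 was the lowest of the 8 arrays for 32.4% of all probes kept, and ATF3 KO replicate 2 for 18.6%. Spread within a genotype was larger in ATF3 KO for 72.6% of probes. The Atf3 probe itself, which may lie outside the deleted part, did not check the labels: its signal was 1.57 to 1.77 in WT and 2.001 to 2.90 in ATF3 KO (log2 difference 0.51, SE 0.14, limma adjusted p = 0.13). Of 14 neutrophil markers, 13 had a named probe and all 13 were well above background on every array, while the gate gene Ly6g had none. The summed signal of the 13 was 10650.2 to 13459 in WT and 12829.6 to 15388 in ATF3 KO.

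All 9 monocyte genes were detected in the sorted fraction, and none of their probes differed between the genotypes at the threshold used. Of the 16 probes, 12 were well above background on all 8 arrays, 1 on 7 arrays and 3 on none. The 13 detected probes cover all 9 genes and were tested. With limma and Benjamini-Hochberg adjustment over 27948 probes, 0 of the 13 passed an adjusted p under 0.05 (lowest 0.155), where 0.208% of all probes did, 0.157% higher and 0.0501% lower. At an unadjusted p under 0.05 there were 3 of 13 (23.1%), against 22.6% of all probes. Of these, 2 were lower and 1 was higher in ATF3 KO, where 13.7% and 8.98% of all probes were. The groups did not overlap for 2 of 13 (15.4%), both lower in ATF3 KO, against 14.4% of all probes in either direction with 10.4% lower and 3.99% higher. These shares lie near those of the whole array. The median log2 difference, ATF3 KO minus WT, was −0.04 over the 13 probes and −0.10 over all probes kept, with 8 of the 13 below 0 (61.5%, against 65% of all). With 1 probe per gene, the 9 genes had summed signals of 289 to 313 in WT and 231 to 285 in ATF3 KO. These sums did not overlap, and they rest mostly on Csf1r A_55_P2025078 and Mpeg1 A_51_P390538. In such bulk samples, fewer cells of a type and less RNA per cell cannot be told apart.

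**Figure D1:**
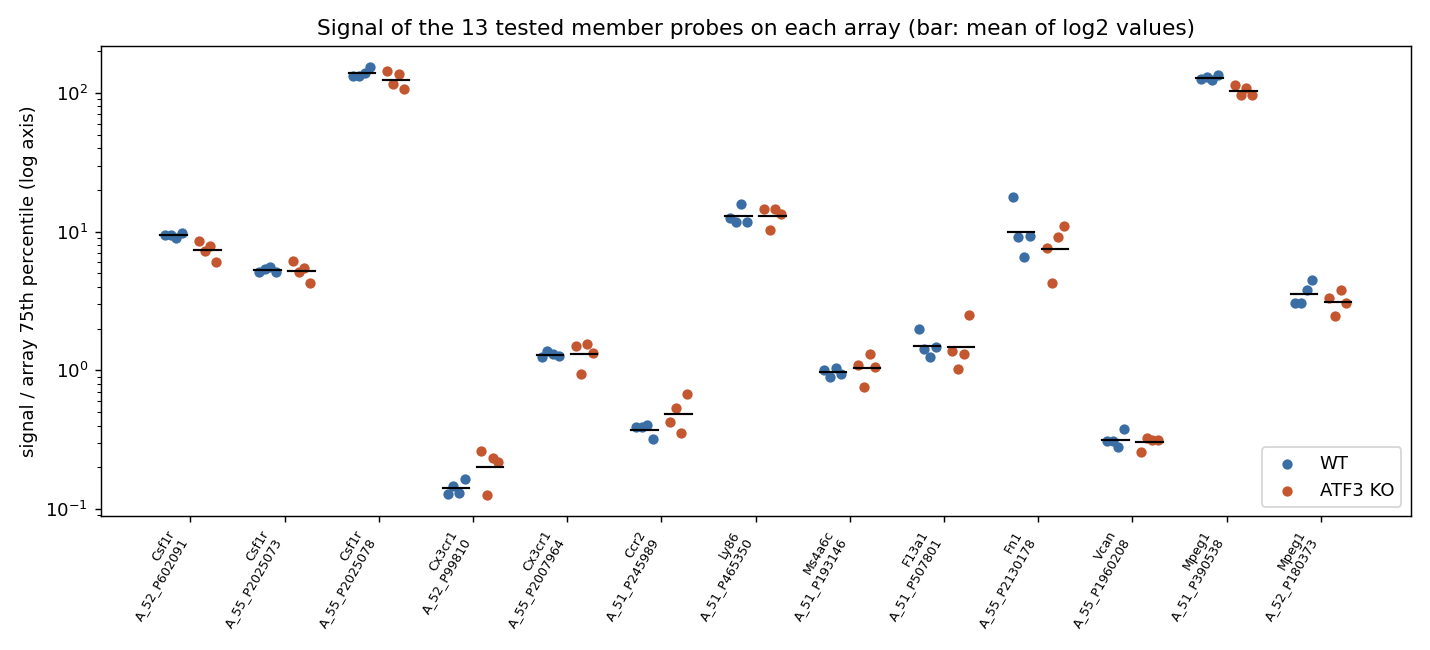
Signal of the 13 tested member probes on each of the 8 arrays, as a multiple of the array's 75th percentile on a log axis, with a bar at the mean of the log2 values of each genotype (n = 4). The 4 ATF3 KO arrays sit below the 4 WT arrays for 1 Csf1r and 1 Mpeg1 probe, and both genotypes overlap for the other 11.

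Csf1r, the receptor for CSF1 and IL-34 that sustains monocytes and macrophages, had 3 probes, all well above background on every array. Its transcript, without the receptor protein, is also known from mouse neutrophils. The probe A_52_P602091 gave 9.45, 9.39, 9.06 and 9.82 in the WT arrays and 8.55, 7.31, 7.90 and 6.00 in the ATF3 KO arrays. Every ATF3 KO array thus lay below every WT array on this probe. The log2 difference was −0.35 (SE 0.12, 95% interval −0.63 to −0.08), with a limma adjusted p of 0.166. The tenth of probes by signal to which this probe belongs had a median log2 difference of −0.18. The brightest probe, A_55_P2025078, gave 133, 133, 140 and 153 in WT and 143, 116, 137 and 106 in ATF3 KO. Here ATF3 KO replicates 1 and 3 fell within the WT range, and the log2 difference was −0.16 (SE 0.12, −0.43 to 0.11, limma adjusted p = 0.409). It was −0.084 without ATF3 KO replicate 4, −0.0081 with the percentile over detected probes, −0.070 with quantile normalization and −0.30 with normexp. The third probe, A_55_P2025073, gave 5.14 to 5.53 in WT and 4.28 to 6.11 in ATF3 KO, a log2 difference of −0.03 (SE 0.12, limma adjusted p = 0.899). The 3 probes therefore disagreed on size, and ATF3 KO replicate 4 was the lowest array on each of them. The separation on A_52_P602091 was lost with quantile normalization, with median scaling and with the percentile over detected probes, while the sign stayed negative. Its difference was −0.20 with that percentile, −0.21 with quantile normalization and −0.205 with the deposited log2 table.

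Mpeg1, which encodes perforin-2, a pore-forming protein of phagocytes, was the other gene with separated groups. Its probe A_51_P390538 gave 125, 131, 124 and 134 in WT and 115, 97.3, 109 and 96.3 in ATF3 KO. The WT arrays lay close together (SD 0.06 on the log2 scale), and all 4 ATF3 KO arrays lay below them. The log2 difference was −0.31 (SE 0.10, 95% interval −0.53 to −0.09), or −0.20 relative to the median of all probes, with a limma adjusted p of 0.155. The tenth of probes with the most signal, to which this probe belongs, had a median log2 difference of −0.13. The second Mpeg1 probe, A_52_P180373, gave 3.08, 3.08, 3.79 and 4.45 in WT and 3.35, 2.46, 3.79 and 3.07 in ATF3 KO. The groups overlapped on it, with a log2 difference of −0.18 (SE 0.17, −0.56 to 0.19, limma adjusted p = 0.486). Leaving out WT replicate 4 gave −0.077, and leaving out ATF3 KO replicate 2 gave −0.069. It was −0.033 with the percentile over detected probes, −0.075 with quantile normalization and −0.11 with the deposited log2 table. With median scaling the separation on A_51_P390538 was lost too, and its difference was −0.15 with the percentile over detected probes and −0.185 with the deposited log2 table.

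**Figure D2:**
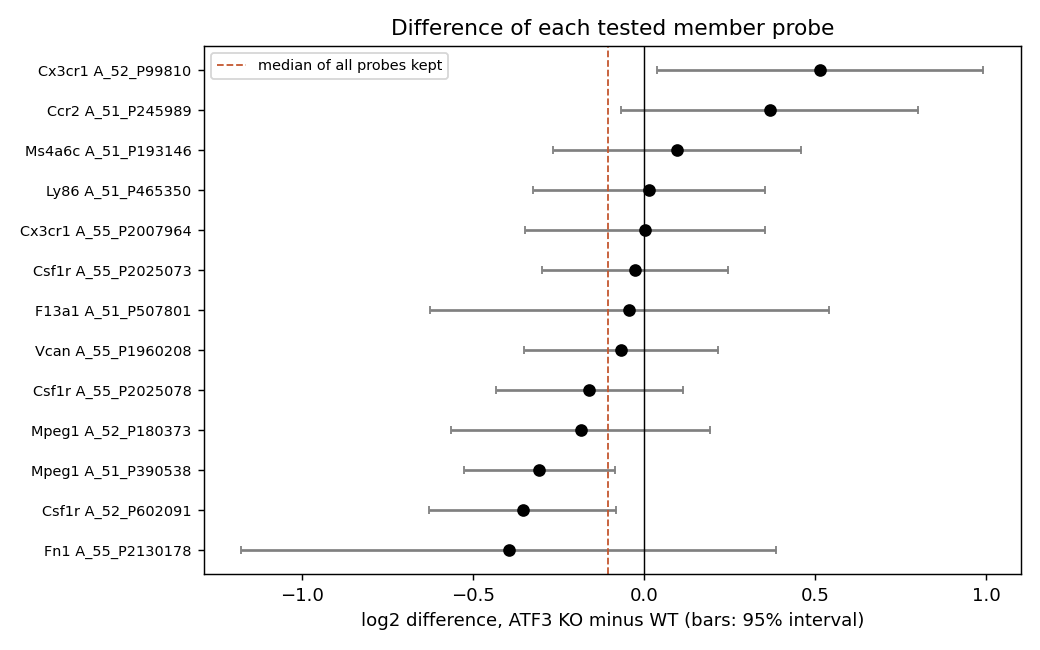
Log2 difference, ATF3 KO minus WT, of the 13 tested probes with its 95% interval from limma, the dashed line marking the median of all probes kept (−0.10). The intervals of 1 Csf1r, 1 Mpeg1 and 1 Cx3cr1 probe do not reach 0, and none of the 13 passed after adjustment over all probes.

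Marker genes of marrow macrophages, cells that use both Csf1r and Mpeg1, had a median log2 difference of −0.37, and all 14 had a value below 0. All 14 were detected on every array, 0 passed the limma threshold, and 7 had groups that did not overlap, all lower, as did 10.4% of all probes. Their summed signal was 392 to 485 in WT and 282 to 366 in ATF3 KO. Vsig4, a complement receptor of tissue macrophages, had 2.91 to 3.17 in WT and 1.22 to 2.07 in ATF3 KO (log2 difference −0.92, limma adjusted p = 0.0539). Timd4, a receptor for dying cells, had a log2 difference of −0.63 (limma adjusted p = 0.114). The part of these cells in the Csf1r and Mpeg1 values was not tested.

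The highest signals of the chemokine receptors Ccr2 and Cx3cr1 were in ATF3 KO arrays, without passing the threshold. Ccr2, the CCL2 receptor through which classical monocytes leave the marrow, had 1 probe with 0.393, 0.387, 0.401 and 0.321 in WT and 0.421, 0.540, 0.352 and 0.678 in ATF3 KO. ATF3 KO replicates 1, 2 and 4 exceeded the whole WT range, and replicate 3 lay within it. The log2 difference was 0.37 (SE 0.19, 95% interval −0.07 to 0.80, limma adjusted p = 0.27), and it was 0.20 without ATF3 KO replicate 4. With the deposited log2 table it was 0.13, and with normexp background correction 0.19. Cx3cr1, the receptor for fractalkine that marks patrolling monocytes, had 2 probes that disagreed. The dim probe, A_52_P99810, gave 0.128, 0.146, 0.131 and 0.165 in WT, where 3 of 4 arrays were well above background, and 0.260, 0.127, 0.234 and 0.217 in ATF3 KO. In ATF3 KO, 3 arrays were above and replicate 2 below the whole WT range, with a log2 difference of 0.52 (SE 0.21, 95% interval 0.04 to 0.99, limma adjusted p = 0.2). It was 0.08 with the deposited log2 table and 0.22 with normexp background correction. The brighter probe, A_55_P2007964, gave 1.24 to 1.39 in WT and 0.942 to 1.55 in ATF3 KO. Its log2 difference was 0.00 (SE 0.16, −0.35 to 0.36, limma adjusted p = 0.99).

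Markers of dendritic cells, which carry both receptors on some subsets, had summed signals of 411 to 536 in WT and 559 to 801 in ATF3 KO. Of 12 such markers 10 were tested and 0 passed, with 7 separated upwards and 1 downwards, against 3.99% and 10.4% of all probes. Those separated upwards were Siglech, Ccr7 and the MHC class II presentation genes H2-Aa, H2-Ab1, H2-Eb1, Cd74 and Ciita. The part of other cell types in these genes was not tested. Cd209a and Xcr1, which mark classical dendritic cell subsets, were above background on no array. Ccr7, the lymph node homing receptor, had a log2 difference of 0.94 (limma adjusted p = 0.0543). Itgax differed by −0.51 (0.117) and Zbtb46 by −0.45 (0.146). The sum rests mostly on Siglech, a marker of plasmacytoid dendritic cells, at 305 to 425 in WT and 429 to 663 in ATF3 KO. Whether these cells contributed to the Ccr2 and Cx3cr1 values was not tested.

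Ly86 and Ms4a6c, which encode surface-associated proteins of monocytes, showed no difference larger than the spread between arrays. Ly86, which encodes MD-1, the partner of the toll-like receptor homologue CD180, gave 12.6, 11.8, 15.9 and 11.7 in WT and 14.5, 10.2, 14.6 and 13.4 in ATF3 KO. The highest array was WT replicate 3 and the lowest ATF3 KO replicate 2, and the log2 difference was 0.01 (SE 0.15, 95% interval −0.33 to 0.35, limma adjusted p = 0.957). Ms4a6c, a member of the membrane-spanning 4A family, gave 1.00, 0.890, 1.05 and 0.945 in WT and 1.097, 0.756, 1.31 and 1.06 in ATF3 KO. The ATF3 KO arrays lay on both sides of the WT range, with a log2 difference of 0.10 (SE 0.16, −0.27 to 0.46, limma adjusted p = 0.71). Ly86 is also transcribed in B cells, whose 11 markers summed to 44.6 to 67.2 in WT and 93.5 to 104 in ATF3 KO, a part in the Ly86 values that was not tested. Of those 11, 0 passed and 6 were separated upwards, against 3.99% of all probes. Jchain, the joining chain of antibodies, had the smallest p (log2 difference 1.81, limma adjusted p = 0.0727).

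F13a1 and Fn1 had the largest SD within either genotype among the 13 probes, 0.28 and 0.61 in WT and 0.55 and 0.59 in ATF3 KO on the log2 scale. F13a1, the A subunit of factor XIII, gave 1.98, 1.43, 1.24 and 1.47 in WT and 1.39, 1.02, 1.31 and 2.50 in ATF3 KO on A_51_P507801. Its highest and its lowest array were both ATF3 KO, and the log2 difference was −0.04 (SE 0.26, 95% interval −0.63 to 0.54, limma adjusted p = 0.926). The F13a1 transcript is also found in platelets, whose 8 markers summed to 23.4 to 35.7 in WT and 25.97 to 70.1 in ATF3 KO. All 8 had a log2 difference above 0, with a median of 0.62 against −0.10 for all probes. The groups overlapped for each of the 8. The part of platelets in F13a1 was not tested. Itga2b (log2 difference 0.63, limma adjusted p = 0.161) and Gp6 (0.75, 0.175), both platelet surface receptors, had the smallest p of that list. The second F13a1 probe was not well above background on any array. Fn1, which encodes fibronectin, gave 17.8, 9.10, 6.52 and 9.25 in WT and 7.68, 4.24, 9.16 and 10.92 in ATF3 KO. WT replicate 1 stood highest and ATF3 KO replicate 2 lowest, and the rest overlapped. The log2 difference was −0.40 (SE 0.35, 95% interval −1.18 to 0.39, limma adjusted p = 0.471), and leaving out WT replicate 1 or ATF3 KO replicate 2 brought it to −0.12 each time. Vcan, the proteoglycan versican, was detected by 1 of its 3 probes, with 0.307, 0.310, 0.280 and 0.379 in WT and 0.258, 0.327, 0.316 and 0.315 in ATF3 KO. The groups overlapped, with a log2 difference of −0.07 (SE 0.13, −0.35 to 0.22, limma adjusted p = 0.742).

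Fn1 and Vcan are also made by stroma, whose 9 markers were all detected, with 0 past the threshold and 3 separated, all lower in ATF3 KO, against 10.4% of all probes. Their summed signal was 66.8 to 94.7 in WT and 37.3 to 55.8 in ATF3 KO. Igfbp5 (log2 difference −0.74, limma adjusted p = 0.0824) and the chemokine gene Cxcl12 (−0.69, 0.102) had the smallest p. The part of stroma in the Fn1 and Vcan values was not tested.

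**Figure D3:**
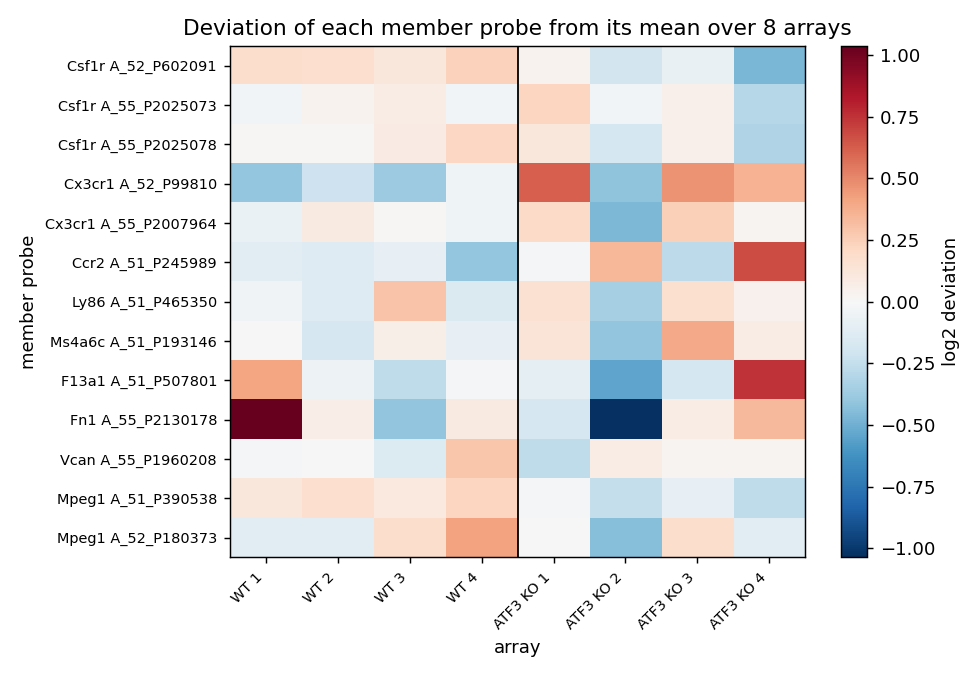
Log2 deviation of each tested member probe (rows) from its own mean over the 8 arrays (columns), the line separating WT from ATF3 KO. ATF3 KO replicate 2 is the lowest array for 7 of the 13 probes, and WT replicate 1 is the highest for Fn1.

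Across the arrays, ATF3 KO replicate 2 was the lowest of the 8 arrays for 7 of the 13 probes, from Cx3cr1, Ly86, Ms4a6c, F13a1, Fn1 and Mpeg1, while it was the lowest for 18.6% of all probes kept. ATF3 KO replicate 4 was the lowest for 4 probes, those of Csf1r and 1 of Mpeg1, and the highest for Ccr2 and F13a1. The WT arrays were the lowest for 1 probe, that of Ccr2, while each of them was the lowest for 3.95% to 10.7% of all probes kept. The spread within ATF3 KO was larger than within WT for 11 of the 13. The genes with profiles most like the mean profile of the 9, by root mean square difference of standardised values over the 8 arrays, were Aebp1 (0.265), Slamf9 (0.282), Pla1a (0.346), Lama5 (0.359), Ramp2 (0.370) and H2al1n (0.377), out of 11706 candidates. That mean profile is low in ATF3 KO replicate 2 (−1.14 SD) and between −0.04 and 0.31 SD elsewhere. Single members lay farther from it, from 0.611 for Cx3cr1 to 1.66 for Ccr2.

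Other genes of the monocyte programme were read from 3 lists. Of 20 ligands and partners of the 9 genes 16 were tested and 0 passed, with 11 below 0 and 5 above. The groups did not overlap for 2, both lower, against 10.4% of all probes. The median log2 difference was −0.24, against −0.10 for all probes. The summed signal of 19 of the 20 genes was 74.6 to 83.4 in WT and 56.8 to 71.3 in ATF3 KO. It leaves out Cd44, which has no value on ATF3 KO replicate 4. Cd44 had 61.0 to 67.3 in WT and 60.2 to 70.5 in the other ATF3 KO arrays (log2 difference 0.04, limma adjusted p = 0.821). As Cd44 is nearly as bright as the 19 together, their sum does not stand for the whole list. Il34, a Csf1r ligand, had 0.239 to 0.294 in WT and 0.146 to 0.198 in ATF3 KO (log2 difference −0.53, limma adjusted p = 0.114), whereas Csf1, the other ligand, differed by −0.06 (0.741). Itgb3, an integrin chain that binds fibronectin, had 33.7 to 42.0 in WT and 25.1 to 31.7 in ATF3 KO (−0.46, 0.114). The Ccr2 ligand Ccl2 had −0.15 (0.609), the Cx3cr1 ligand Cx3cl1 had −0.40 (0.385), and Ccl7 was above background on no array. Among those above 0, Adamts5 had 0.60 (0.163) and Ccl8 had 0.26 (0.627). Cd180, the partner of MD-1, was above background on 1 WT and 1 ATF3 KO array and was not tested.

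Of 25 further monocyte genes 22 were tested, 0 passed, 3 were separated, all lower, against 10.4% of all probes, and the median log2 difference was −0.16. Cd300c2 (−0.33, limma adjusted p = 0.145) and the lysosomal protein gene Psap (−0.35, 0.158) had the smallest p. Ly6c2 and Cd68 had no named probe. The summed signal of this list overlapped between the genotypes, at 2039.8 to 2189 in WT and 1559 to 2260.4 in ATF3 KO. Of 12 transcription factors of the lineage all 12 were tested, 0 passed, 4 were separated, all lower, against the same 10.4%, and the median was −0.22. Batf3 (−0.51, 0.141) and Zeb2 (−0.40, 0.151) had the smallest p, and Irf8, which directs progenitors towards monocytes, had −0.01 (0.962). Of 8 markers of the progenitors shared with neutrophils, 0 passed and 2 were separated, both lower, against 10.4% of all probes. Their median was −0.07, against −0.10 for all probes, with 7 below 0 and 1, Flt3, above (0.27, 0.36). Ms4a3 at −0.39 (0.17) and Kit at −0.30 (0.173) had the smallest p, and Mpo had −0.10 (0.793).

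**Figure D4:**
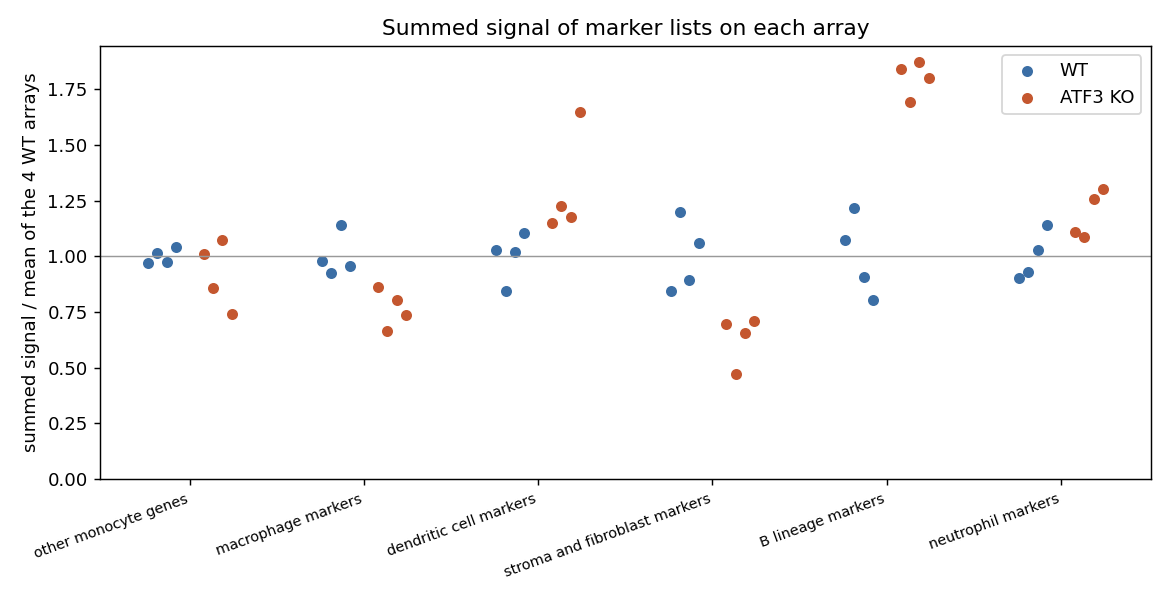
Summed signal of 6 gene lists on each array, divided by the mean of the 4 WT arrays. The macrophage and stroma sums are lower and the dendritic cell and B lineage sums higher on all 4 ATF3 KO arrays than on any WT array, while other monocyte genes and neutrophil markers overlap. The sum of the 9 genes, not drawn, was also lower on all 4 ATF3 KO arrays. So was that of 19 of their 20 ligands and partners, which leaves out the bright gene Cd44.

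For the remaining cell types 0 genes passed as well. Cd3d (log2 difference −0.38, limma adjusted p = 0.178) and Cd4 (−0.32, 0.185) had the smallest p among 6 tested T and NK cell markers. Of the 6, 5 were below 0, and the median log2 difference was −0.29. Alas2 (−0.31, 0.375) and Hba-a1 (0.17, 0.381) had the smallest p among 8 erythroid markers, of which 3 were below 0 and 5 above, with a median of 0.09. Gata2 (0.75, 0.0543) and Il5ra (0.41, 0.134) had it among 8 markers of eosinophils, basophils and mast cells, of which 4 were below 0 and 4 above, with a median of 0.18. The groups did not overlap for 3 of these 8, all higher in ATF3 KO, against 3.99% of all probes. The neutrophil genes Csf3r (0.31, 0.171) and S100a8 (0.36, 0.18) had the smallest p of their list, in which 4 of 13 were below 0 and 9 above, with a median of 0.20.

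The start sites of 7 of the 9 genes were read from RefSeq on GRCm38.p6, in 8 windows from 250 bases before to 50 after the start. They were searched on both strands for GAGGAA, a core of the site of the myeloid factor PU.1, for TGACG, part of the CRE site that ATF proteins bind, and for TGANTCA, the AP-1 site. GAGGAA was in 2 of the 8 windows, both of F13a1, against 28.3% of all 32851 windows. TGACG was in 1 of the 8, also of F13a1, against 20.8%, and TGANTCA in 0 of the 8, against 7.81%. The windows of Cx3cr1, Ccr2, Ly86, Ms4a6c, Vcan and Mpeg1 hold none of the 3 motifs. F13a1 and Ly86 are next to each other on chromosome 13, with 0 protein-coding genes between them. A window is shown for F13a1, as the only one with TGACG, and another for Mpeg1, the gene with the smallest p. The first is chr13:37049164-37049463 on the minus strand and the second chr19:12460520-12460819 on the plus strand, both 5′ to 3′, with matches in capitals (CGTCA being TGACG on the other strand). A match is a description of the letters, not of binding.
F13a1: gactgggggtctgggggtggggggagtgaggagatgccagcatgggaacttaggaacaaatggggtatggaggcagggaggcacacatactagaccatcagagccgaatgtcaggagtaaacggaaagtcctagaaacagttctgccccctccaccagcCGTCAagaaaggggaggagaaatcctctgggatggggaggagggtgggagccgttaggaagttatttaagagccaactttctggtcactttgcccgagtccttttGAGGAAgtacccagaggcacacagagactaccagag
Mpeg1: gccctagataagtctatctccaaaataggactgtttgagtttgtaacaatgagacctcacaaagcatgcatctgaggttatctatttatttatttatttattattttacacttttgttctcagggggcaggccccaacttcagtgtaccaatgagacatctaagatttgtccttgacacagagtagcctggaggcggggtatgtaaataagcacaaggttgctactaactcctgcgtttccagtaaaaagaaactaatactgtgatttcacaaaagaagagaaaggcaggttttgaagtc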

How the data were processed

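Cy3-labelled RNA of the 8 sorted samples was read on single-colour arrays, per the labels' protocols. The deposited scanner files hold spot intensity from Feature Extraction, given as 10.9.1.1 in the file headers and as 10.10 in the submitters' processing notes, background-subtracted and detrended within each array. The deposited table of the series holds log2 values whose scale and centring are not stated, and it served as an alternative.

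Control spots and spots with an outlier flag (98 to 159 per array) were left out, and no spot was saturated. Spots of a probe were averaged, and log2 of the processed signal was taken minus the array's 75th percentile. Probes well above background on at least 4 of 8 arrays (27948) were fitted with limma 3.58.1 in R 4.3.3, genotype being the only term. The fit was tested on simulated data. Groups came from the sample titles. RefSeq accessions named 27235 probes and not 28446, and the build of the array design (mm9) differs from that of the names, GRCm38.p6. In lists, a gene is its brightest probe kept. Sums also take the brightest probe of a gene with no probe kept, and they leave out a probe with a missing spot. Named were all 9 genes, the Atf3 probe, from each list the called genes or the 2 with the smallest p, and the 6 genes with the most similar profile; other genes named were chosen after their values were seen. For the B lineage list 1 gene named by this rule is not reported here. The genes and lists were chosen with earlier results of these data known. Same-numbered samples did not consistently deviate together (r across probes from −0.26 to 0.20). These few values cannot show whether the numbers pair the samples, and the main fit used no pairing.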

Additional observations from a re-analysis of the deposited data

Results flagged for a closer look

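Among the 26 groups of 4 arrays examined, 2 held an array far from the other 3, where chance gives about 1 in 20. On the Ccr2 probe, WT replicate 4 had 0.321 times the 75th percentile, below the other WT arrays at 0.387 to 0.401. On the detected Vcan probe, ATF3 KO replicate 1 had 0.258, below the other ATF3 KO arrays at 0.315 to 0.327.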

How the results depend on the processing

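At a limma adjusted p under 0.05, the count of called probes among the 9 genes was 0 in all 19 alternatives run. With the main processing it was also 0 at an adjusted p under 0.1. Across the alternatives the lowest adjusted p of any member was 0.0805 (Csf1r A_52_P602091, normexp). Mpeg1 A_51_P390538 was under 0.1 too, at 0.0859 with normexp and 0.0995 with trend and robust variances. Over all probes 58 were called (44 higher and 14 lower), but 254 (163 and 91) with normexp, 234 (189 and 45) with median scaling, 89 with the filter on all 8 arrays, 9 with no filter, 95 with 1 probe per gene, 212 with trend and robust variances, 187 with the deposited log2 table, 221 with array weights, 452 at an adjusted p under 0.1, and 8 to 156 when each array was left out in turn. Quantile normalization gave 42 (27 and 15). Among the 13 other lists together 0 genes were called, but 7 with normexp, 3 with median scaling, 3 with the filter on all 8 arrays, 3 with 1 probe per gene, 6 with trend and robust variances, 3 with array weights, 6 with the deposited table, 7 at an adjusted p under 0.1, and 0 to 1 when each array was left out. The cause was not tested. With the replicate block 54 probes were called, and 0 of the 9 genes.

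The sign of 7 of the 13 member differences held in every alternative that tested them. It turned for Csf1r A_55_P2025073 with quantile normalization (0.11), the percentile over detected probes (0.13) and array weights (0.0075), and ran from −0.10 to 0.068 with each array left out. For Cx3cr1 A_55_P2007964 it turned with normexp (−0.027), median scaling (−0.072), array weights (−0.061) and the deposited table (−0.015), and ran from −0.079 to 0.16 with each array left out. For Ly86 it turned with normexp (−0.043), median scaling (−0.061) and array weights (−2.17e-05), from −0.038 to 0.13. For F13a1 it turned with quantile normalization (0.021), the percentile over detected probes (0.11) and the deposited table (0.0325), from −0.30 to 0.13. For Vcan it turned with normexp (0.070) and the percentile over detected probes (0.084), from −0.13 to 0.018, and Ms4a6c ran from −0.017 to 0.25 with each array left out. These 6 differences are smaller than their standard errors. The median of all probes moved from −0.10 to −0.18 with median scaling and to 0.05 with the percentile over detected probes. The number of arrays and signal near background (Cx3cr1 A_52_P99810) limit the precision.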
